A study of Oryza sativa Japonica Group with 24 samples.

Results

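The transcriptomes of spx4 and bHLH6-OV rice shoots were set against each other, both at ample phosphate (Pi). The comparison holds 6 of the 24 libraries of the study, chosen by their labels, 3 from spx4 high Pi shoots and 3 from bHLH6-OV high Pi shoots. The line spx4 is labelled as a T-DNA mutant of SPX4, and bHLH6-OV overexpresses the transcription factor bHLH6, in seedlings of Oryza sativa Japonica. Both were supplied with 200 µM Pi for 2 weeks from 7 days of age, and each library pools the shoots of 3 seedlings. The remaining libraries are roots of both lines, WT (wild type) roots and shoots at 200 µM Pi and WT roots and shoots at 10 µM Pi (low Pi). The labels give no promoter for the transgene and no further line of either genotype, so an effect of the gene and an effect of the line cannot be told apart.

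SPX proteins bind inositol pyrophosphates, which accumulate when Pi is plentiful, and in that state hold back PHR transcription factors such as PHR2, the activators of Pi starvation genes. SPX4 is known for retaining PHR2 outside the nucleus in rice. bHLH6, also called RERJ1, is a basic helix-loop-helix factor first described in rice as induced by jasmonate, the hormone of the wound and chewing-insect response. Rice answers pathogens by making labdane-related diterpenoid phytoalexins, the momilactones and phytocassanes, whose genes lie in clusters on chromosomes 4 and 2, and by making pathogenesis-related (PR) proteins.

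Levels are given as deposited FPKM (fragments per kilobase of gene length, scaled per library), so they can be read between genes, while between libraries they also carry each library's scaling. Differences are log2 fold changes of FPKM + 1, spx4 minus bHLH6-OV, from limma, and a call is an adjusted p under 0.05. A positive value is higher in spx4. Reads in genes ran from 21.0 to 25.9 M per library in spx4 and from 23.0 to 27.6 M in bHLH6-OV. Nothing in the labels says that pooled seedlings of a group were grown apart, beyond calling them biological replicates. In whole shoots, fewer cells of a type and less RNA per cell cannot be told apart.

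Of 19990 genes tested, 6403 were called (32.0%), of which 3652 were higher in spx4 (18.3%) and 2751 lower (13.8%). The shares of 18.3% and 13.8% are the background for each count of a list or family below. The 3 libraries of one line lay outside the range of the other 3 in 48.8% of tested genes. Differences of at least 2-fold, 1426 calls (7.13%), leaned the other way, since 944 genes were at least 2-fold lower in spx4 (4.72%) and 482 at least 2-fold higher (2.41%). Without bHLH6-OV replicate 1 the calls numbered 4027, and the higher calls were 2157 without that library and 2371 without spx4 replicate 3. The direction of the small differences rests on scaling. With TPM scaling (equal sums of length-corrected reads in each library) 1069 genes were higher and 6323 lower, with median centring 2530 and 3496, and with limma voom on rebuilt reads 2720 and 3103, and the median of all genes moved from 0.06 to -0.24 with TPM. FPKM summed over all genes, in units of 1000, ran from 842 to 880 per library in spx4, from 619 to 732 in bHLH6-OV and from 764 to 846 in WT at high Pi. The part of the gap between the lines in the small differences was not tested. WT high Pi libraries place the lines: the WT mean lay nearer to spx4 than to bHLH6-OV in 84.9% of called genes and 68.7% of all tested genes, both distances being read from the same WT libraries. This placement was read from FPKM as deposited, in which the WT sums also lie nearer to spx4. It was not repeated with another scaling.

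The manipulated genes were read first. bHLH6 (LOC_Os04g23550, chromosome 4, 13466420 to 13468869) stood at 14.5, 21.8 and 32.8 FPKM in the spx4 libraries and at 85.8, 109.9 and 119.8 in the bHLH6-OV libraries. The groups did not overlap, and every overexpressor library lay well above the highest spx4 library. The difference was called (log2 fold change -2.20, SE 0.63, limma adjusted p = 0.0224), but not without spx4 replicate 1 (adjusted p = 0.0786) or bHLH6-OV replicate 2 or 3 (0.0628 and 0.0585). WT shoots held 5.24 ± 0.0435 FPKM at high Pi and 55.4 ± 40.2 at low Pi (SD, n = 3), so all 3 spx4 libraries lay above WT at high Pi. The difference of spx4 from WT at high Pi was not called (log2 fold change 1.87, limma adjusted p = 0.178). SPX4 (LOC_Os03g61200, chromosome 3, 34756011 to 34758997) stood at 8.6, 7.59 and 6.82 FPKM in spx4 and 8.85, 11.6 and 10.2 in bHLH6-OV. The groups lay close without overlapping, and RNA of the SPX4 locus remained in every mutant library. Where these reads lie relative to the insertion was not tested, so the level alone does not check the label. The call (log2 fold change -0.37, SE 0.11, limma adjusted p = 0.0305) ended without spx4 replicate 2 or 3 (adjusted p = 0.0622 and 0.109), without bHLH6-OV replicate 2 or 3 (0.118 and 0.0661) and over the 6 libraries alone (0.0513). WT shoots held 13.8 ± 1.61 FPKM of SPX4 at high Pi (SD, n = 3), above both lines.

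The tissue label was read from marker lists. All 11 green-tissue markers were expressed in the 6 libraries, and PSBO, a protein of photosystem II, stood at 8651, 7872 and 7498 FPKM in spx4 and 3135, 4363 and 5109.6 in bHLH6-OV. Among the 6 root markers, RCc3, the silicon exporter LSI2 and the phytosiderophore exporter TOM1 were too low in shoots to be tested. The silicon channel LSI1 stood at 34.1 ± 1.52 FPKM in spx4 shoots against 1017 ± 147 in spx4 roots, and the iron transporter IRT1 at 0.93 ± 0.276 against 10.9 ± 0.936 (SD, n = 3). NAAT1 went against its use as a root marker, with 57 ± 46.8 FPKM in spx4 shoots and 29.7 ± 14.9 in spx4 roots, and 271 ± 94.5 in bHLH6-OV shoots and 14.4 ± 4.61 in bHLH6-OV roots (SD, n = 3).

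Pathogenesis-related genes were among those with wide differences. Of 9 defence markers 8 were tested, 6 were lower in spx4, 0 higher and 2 not called (median log2 fold change -3.65, against 0.06 over all genes). PR1a, 1 of the 6, passed the filter on low values only through bHLH6-OV, so its place in this count adds no support. PR1b (LOC_Os01g28450, chromosome 1, 15934491 to 15935319), a secreted protein used as a marker of salicylate and pathogen responses, stood at 3.14, 0.301 and 0 FPKM in spx4 and 514, 352 and 385 in bHLH6-OV. No overexpressor library came near any mutant library, and 1 mutant library had no read. The difference (log2 fold change -7.88, SE 0.75, limma adjusted p = 2.99e-05) was the widest of all named genes on the log2(FPKM + 1) scale, and WT held 5.17 ± 4.52 FPKM (SD, n = 3). PR1a, its relative on chromosome 7 (LOC_Os07g03710), stood at 0, 0.0534 and 0.499 FPKM in spx4 and 8.37, 28 and 30.0 in bHLH6-OV (log2 fold change -4.13, SE 0.47, limma adjusted p = 0.000105). Here bHLH6-OV replicate 1 lay well under the other overexpressor libraries and still far above the mutant. NPR1, the salicylate receptor and coactivator, was not called, with 10.2 ± 2.44 FPKM in spx4 and 9.97 ± 0.975 in bHLH6-OV (SD, n = 3) and a limma adjusted p of 0.981.

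PR10 proteins are small intracellular proteins of the Bet v I family, and 5 tested genes of this cluster lie within 20.5 kb on chromosome 12 (22580778 to 22601258), 4 of them lower in spx4. PBZ1 (LOC_Os12g36880), named for its induction by the plant activator probenazole, stood at 46.1, 126 and 52.6 FPKM in spx4 and 896, 703 and 882 in bHLH6-OV (log2 fold change -3.59, SE 0.39, limma adjusted p = 7.98e-05). RSOsPR10 (LOC_Os12g36830) stood at 27.7, 108 and 26.3 FPKM in spx4 and 675, 458 and 619 in bHLH6-OV (log2 fold change -3.71, SE 0.61, limma adjusted p = 0.00125). In both genes spx4 replicate 2 was the highest mutant library, and both groups stayed apart. PR10b (LOC_Os12g36850) stood at 2.2, 16.8 and 1.27 FPKM against 150.4, 128 and 186 (log2 fold change -4.93, SE 0.58, limma adjusted p = 0.000131), and LOC_Os12g36860, described as a Bet v I protein, at 0, 2.54 and 0 against 34.5, 37.2 and 48.3 (log2 fold change -4.74, SE 0.44, limma adjusted p = 2.46e-05). The same mutant library was again the highest. LOC_Os12g36860 passed the filter on low values only through bHLH6-OV, so its place among the 4 lower genes adds no support. Within this cluster LOC_Os12g36870, which has no description, differed from its neighbours, at 7.04, 6.51 and 7.17 FPKM in spx4 and 5.48, 5.68 and 6.34 in bHLH6-OV (limma adjusted p = 0.561). PR10 genes are close copies, so the division of reads among them is uncertain.

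Chitinases, which cut the chitin of fungal walls, were lower in spx4 in 7 of 10 tested genes of glycoside hydrolase family 19, with 0 higher and 3 not called. LOC_Os10g39680 (chromosome 10, 21205700 to 21207611) stood at 0.425, 6.42 and 2.55 FPKM in spx4 and 288, 86 and 116 in bHLH6-OV (log2 fold change -5.42, SE 0.60, limma adjusted p = 9e-05). Its overexpressor libraries spread widely, with replicate 1 the highest, and all of them lay above the mutant. The PR4-type Barwin domain gene LOC_Os11g37950 stood at 0.42, 2.09 and 0.376 FPKM against 62.5, 26.1 and 28.8 (log2 fold change -4.35, SE 0.49, limma adjusted p = 9.5e-05), and the thaumatin-like gene LOC_Os03g46070 at 2.37, 4.23 and 1.06 against 68.5, 42.8 and 44.8 (log2 fold change -3.97, SE 0.41, limma adjusted p = 5e-05). Over the whole thaumatin-like family 3 of 16 tested genes were higher in spx4 and 4 lower, so the family as a whole was mixed. Glutathione S-transferases, detoxification enzymes, were lower in 19 of 45 tested cases and higher in 9, and among at least 2-fold differences 13 were lower and 1 higher.

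**Figure D1:**
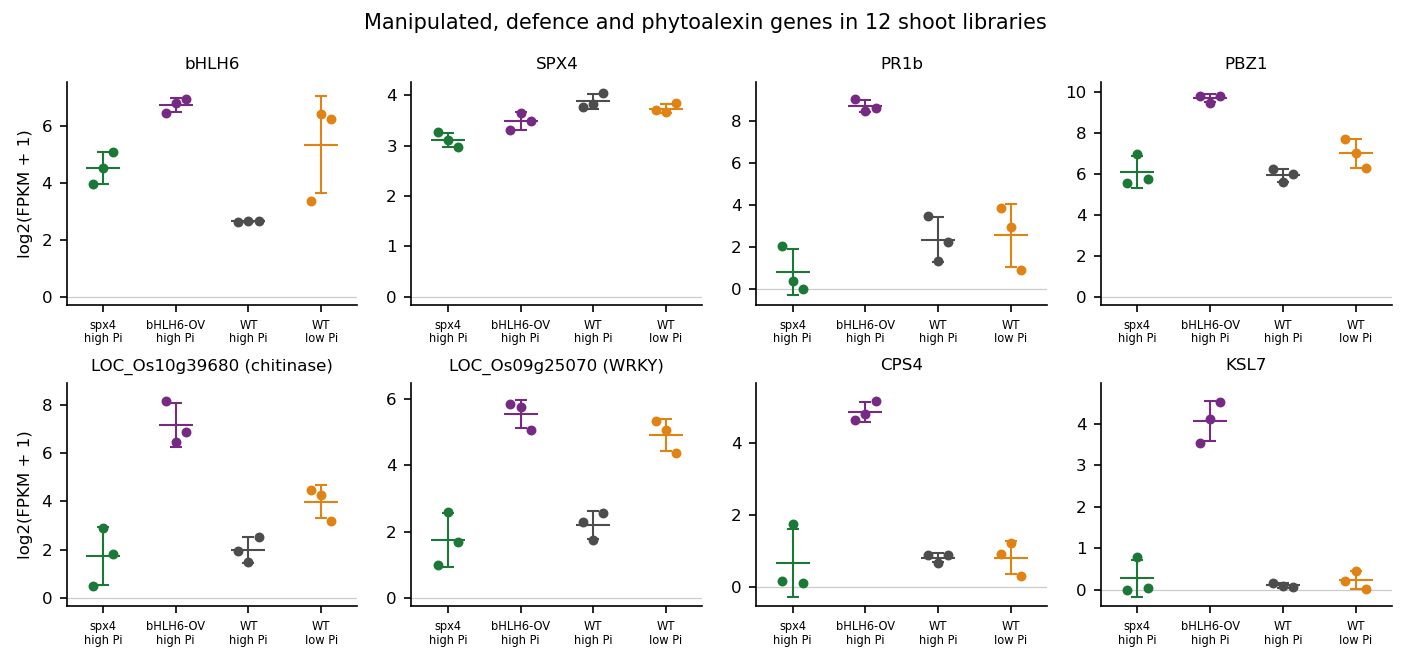
Levels of the manipulated genes, defence genes and phytoalexin genes in the 12 shoot libraries, as log2(FPKM + 1) on the vertical axis for 4 groups on the horizontal axis. Points are libraries, and bars give the mean ± SD (n = 3). PR1b, PBZ1, the chitinase, the WRKY gene, CPS4 and KSL7 lie higher in each bHLH6-OV library than in any spx4 library, and in these genes spx4 lies near WT at high Pi or below it.

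The diterpenoid phytoalexin pathway was lower in spx4 throughout the genes tested. Of 17 listed genes 14 were tested, all 14 were lower in spx4, and the median log2 fold change was -3.14. Of these, 10 had a mean under 1 FPKM over the 9 shoot libraries other than bHLH6-OV and passed the filter on low values only through bHLH6-OV, so a difference was built into the tested set and its count adds no support. CPS4, KSL7, MAS2, MAS1 and DPF, given below, are among these 10, so their calls add no support either. CPS4 (LOC_Os04g09900), the syn-copalyl diphosphate synthase that opens the momilactone branch, stood at 0.12, 2.39 and 0.0719 FPKM in spx4 and 23.8, 26.6 and 35 in bHLH6-OV (log2 fold change -4.19, SE 0.39, limma adjusted p = 2.17e-05). CPS2 (LOC_Os02g36210), the ent-copalyl diphosphate synthase that opens the phytocassane branch, stood at 2.21, 1.45 and 0.537 FPKM in spx4 and 13.5, 35.5 and 51.8 in bHLH6-OV (log2 fold change -3.73, SE 0.54, limma adjusted p = 0.000567). Mutant and overexpressor did not overlap for either, and for CPS2 the bHLH6-OV libraries differed widely among themselves. KSL7 (LOC_Os02g36140), the cyclase of the phytocassane branch, stood at 0, 0.736 and 0.0358 FPKM against 10.7, 16.4 and 22.1 (log2 fold change -3.79, SE 0.26, limma adjusted p = 1.59e-06). MAS2 (LOC_Os04g10000), a dehydrogenase of late momilactone synthesis, stood at 0.0589, 1.13 and 0.105 FPKM against 13, 15.1 and 24.2 (log2 fold change -3.72, SE 0.31, limma adjusted p = 9.32e-06). It has a close copy beside it, MAS1, at 0.311 FPKM in spx4 and 12.2 in bHLH6-OV on average, and reads may be split between them. In CPS4, KSL7 and MAS2, spx4 replicate 2 was the highest mutant library.

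Both phytoalexin clusters could be read gene by gene. In the momilactone cluster on chromosome 4 (5318060 to 5486773), 5 of 26 features were tested, and all 5 were lower in spx4. They held at most 1.37 FPKM on average in spx4 and WT at either Pi supply, so they passed the filter only through bHLH6-OV and the count was fixed by it. In the phytocassane cluster on chromosome 2 (21690378 to 21906350), 6 of 9 tested genes were lower in spx4, of 22 features, and none was higher, 3 of the lower genes having passed the filter only through bHLH6-OV. The 3 not called were an unannotated transcript, a terpene synthase fragment (LOC_Os02g36264) and a cytochrome P450 gene (LOC_Os02g36150) at 4.09, 2.85 and 3.13 FPKM in spx4 and 5.44, 5.36 and 6 in bHLH6-OV (limma adjusted p = 0.0684). DPF, a bHLH factor that activates phytoalexin genes in rice, stood at 0, 0.25 and 0 FPKM in spx4 and 2.78, 3.37 and 5.32 in bHLH6-OV (log2 fold change -2.13, SE 0.18, limma adjusted p = 9.43e-06). DPF too passed the filter only through bHLH6-OV. The 3 listed genes under the filter were KSL4, KSL6 and NOMT. KSL4, the momilactone cyclase, held 0.0235, 0.27 and 0 FPKM in spx4 and 1.3, 3.16 and 4.58 in bHLH6-OV, and NOMT, the methyltransferase of the flavonoid phytoalexin sakuranetin, held 0, 0 and 0 and 0.0442, 2.9 and 3.63. With every gene above 0 tested, both were lower in spx4 (limma adjusted p = 0.000924 and 0.0462), and KSL6 was not called (adjusted p = 0.759). In the terpene synthase family, which includes the CPS and KSL genes, 8 of 17 tested were lower in spx4 and 2 higher, against 13.8% lower and 18.3% higher over all genes. Among the 8, CPS4, KSL7 and KSL10 passed the filter only through bHLH6-OV, so the family count adds no support.

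Regulators of defence differed by family. WRKY factors, many of which act in pathogen responses, were lower in spx4 in 22 of 60 tested cases and higher in 10 (median -0.30), with 15 at least 2-fold lower and 5 at least 2-fold higher. Over all genes 13.8% were called lower and 18.3% higher. LOC_Os09g25070 stood at 0.978, 4.98 and 2.23 FPKM in spx4 and 56.3, 53 and 32.7 in bHLH6-OV (log2 fold change -3.81, SE 0.39, limma adjusted p = 4.63e-05), with no overlap. WRKY45, a salicylate-pathway regulator of blast resistance, was chosen after its values were seen, and stood at 41.3, 61.3 and 47.1 FPKM against 271, 231 and 179 (log2 fold change -2.16, SE 0.17, limma adjusted p = 4.73e-06). NAC factors were lower in 15 and higher in 9 of 55 cases, which TPM scaling made 26 and 5, and the NAC gene LOC_Os07g04560 stood at 0, 0.0967 and 0 FPKM in spx4 and 2.3, 5.18 and 7.44 in bHLH6-OV (log2 fold change -2.43, SE 0.30, limma adjusted p = 0.000197). The heat shock factor gene LOC_Os09g28354 stood at 9.15, 9.1 and 5.77 FPKM against 38.1, 30.0 and 33.3 (log2 fold change -1.97, SE 0.15, limma adjusted p = 5.35e-06).

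AP2/ERF factors, which act in stress and ethylene responses, went the other way. By family label, a list added after the values were seen, 29 of 67 tested were higher in spx4 and 7 lower (median 0.37), and 13 were at least 2-fold higher against 3 at least 2-fold lower, while TPM scaling gave 18 higher and 16 lower and leaving out bHLH6-OV replicate 1 left 19 higher. LOC_Os08g36920 stood at 7.36, 10.3 and 20.9 FPKM in spx4 and 0.0622, 0.0378 and 0.693 in bHLH6-OV (log2 fold change 3.37, SE 0.50, limma adjusted p = 0.000656). LOC_Os02g45450 stood at 9.36, 11.3 and 18 FPKM against 0.247, 0 and 1.07 (log2 fold change 3.29, SE 0.74, limma adjusted p = 0.00716), a call lost with voom (adjusted p = 0.185). Both were low in every overexpressor library and at or above the WT mean in the mutant, where WT held 5.19 ± 0.832 and 8.16 ± 0.463 FPKM (SD, n = 3).

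**Figure D2:**
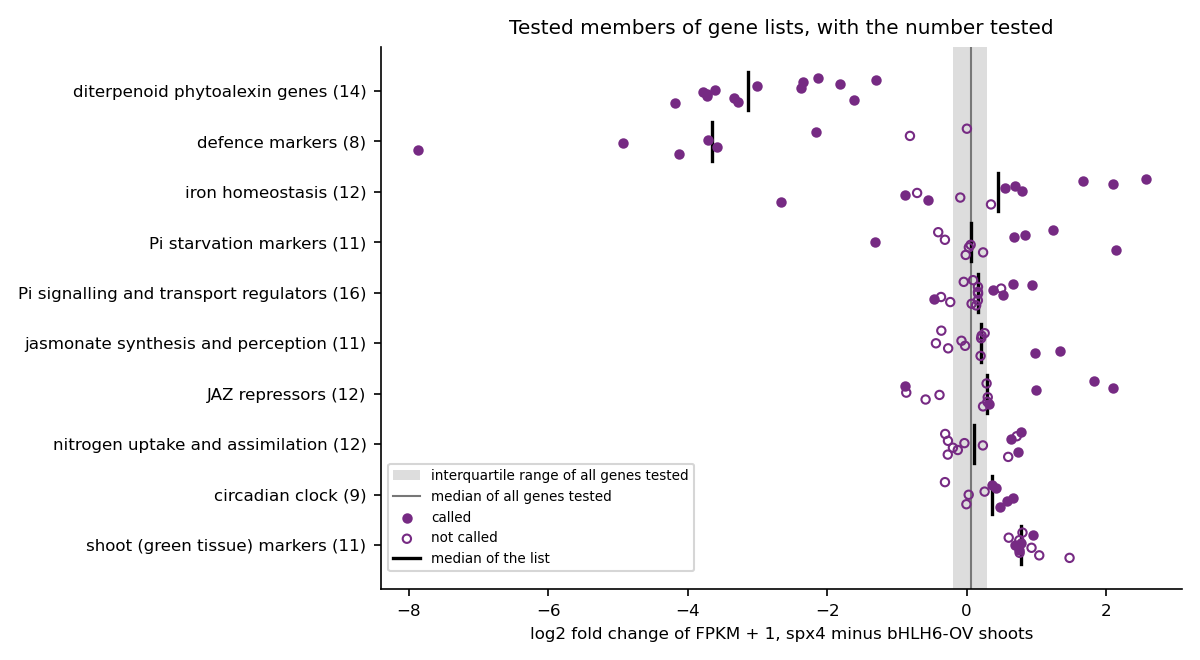
Log2 fold change of FPKM + 1 (horizontal axis, spx4 minus bHLH6-OV shoots) for the tested members of 10 gene lists (vertical axis, number tested in brackets). Filled points are called and open points are not, black ticks are list medians, and the grey band and line are the interquartile range and the median of all genes tested. Phytoalexin genes lie around -3.14 and defence markers around -3.65, while the medians of the other lists run from 0.06 to 0.78.

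Pi starvation genes showed no common direction between the lines at ample Pi. Of 16 listed markers 11 were tested, 4 were higher in spx4, 1 was lower and 6 were not called (median 0.06), and TPM scaling made this 3 and 3. SPX2 (LOC_Os02g10780), a nuclear SPX protein that also restrains PHR2, stood at 7.54, 7.24 and 6.07 FPKM in spx4 and 0.809, 0.557 and 1.01 in bHLH6-OV (log2 fold change 2.15, SE 0.14, limma adjusted p = 8.13e-07). The overexpressor stood apart on the low side, as WT held 11.2 ± 0.598 FPKM at high Pi and 205 ± 38.7 at low Pi (SD, n = 3). PT8, a high-affinity Pi transporter, stood at 23.5, 42.4 and 19.3 FPKM in spx4 and 80.1, 69.4 and 56.6 in bHLH6-OV (log2 fold change -1.31, SE 0.24, limma adjusted p = 0.00256), the one marker lower in the mutant, with WT at 29.6 ± 2.93 (SD, n = 3). SPX-MFS2, a vacuolar Pi transporter, stood at 32.2, 31.3 and 46.2 FPKM against 14.2, 13.8 and 15.9 (log2 fold change 1.25, SE 0.14, limma adjusted p = 9.9e-05). GDPD2, a phosphodiesterase of phospholipid breakdown, stood at 1.18, 1.42 and 2.25 FPKM in spx4 and 0.464, 0.589 and 0.293 in bHLH6-OV (log2 fold change 0.84, SE 0.17, limma adjusted p = 0.00487), both far under the 328 FPKM of WT at low Pi. IPS1, a non-coding RNA known for its rise under Pi shortage, held 0.173 and 0.198 FPKM on average, close to none in either line.

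Of the 16 Pi signalling and transport regulators, all tested, 4 were higher in spx4, 1 was lower and 11 were not called, which TPM scaling made 2 and 3. The share called higher lay near the 18.3% over all genes, so the count does not set this list apart. VPE1, a vacuolar Pi efflux transporter, stood at 66.9, 58.2 and 69 FPKM in spx4 and 32, 38.3 and 29.6 in bHLH6-OV (log2 fold change 0.94, SE 0.12, limma adjusted p = 0.000189). Its relative VPE2 stood at 8.01, 8.47 and 8.5 FPKM against 4.69, 5.04 and 4.89 (log2 fold change 0.67, SE 0.072, limma adjusted p = 7.03e-05). The mutant libraries of both lay at the WT level (65.6 ± 5.49 and 7.98 ± 0.414 FPKM; SD, n = 3). PHR2, the target of SPX4, held 27.7 ± 1.75 FPKM in spx4 and 26.3 ± 1.29 in bHLH6-OV (SD, n = 3) and was not called (limma adjusted p = 0.492). RLI1, a PHR-type MYB factor, stood at 6.85, 5.86 and 6.03 FPKM in spx4 and 7.9, 10.2 and 9.07 in bHLH6-OV (log2 fold change -0.47, SE 0.12, limma adjusted p = 0.0157), a call lost without bHLH6-OV replicate 2 (adjusted p = 0.066) or spx4 replicate 3 (0.0508). NLA1, a ubiquitin ligase that degrades Pi transporters, stood at 9.2, 7.6 and 9.79 FPKM against 5.24, 6.22 and 6 (log2 fold change 0.53, SE 0.16, limma adjusted p = 0.027). That call ended with TPM scaling (adjusted p = 0.179) and without any 1 of bHLH6-OV replicates 1, 2 and 3 (0.0971, 0.0513 and 0.0518) or spx4 replicates 1 and 3 (0.0757 and 0.0922).

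Among jasmonate genes, the calls were both allene oxide synthases of the list and a few repressors. AOS2, an allene oxide synthase at the entry to jasmonate synthesis, stood at 6.72, 9.75 and 13 FPKM in spx4 and 1.86, 4.03 and 4.01 in bHLH6-OV (log2 fold change 1.34, SE 0.25, limma adjusted p = 0.00263). AOS1, its relative, stood at 12.5, 11 and 14.6 FPKM against 4.99, 6.22 and 6.61 (log2 fold change 0.98, SE 0.15, limma adjusted p = 0.000719). No library of one line reached the other in either gene, and these were the 2 of 11 tested genes of jasmonate synthesis and perception that were called, a share near the 18.3% called higher over all genes, and TPM scaling gave 2 higher and 2 lower. JAZ proteins repress jasmonate responses and are themselves jasmonate-induced, and of 12 tested JAZ genes 4 were higher in spx4, 1 lower and 7 not called, which TPM scaling made 3 and 3. JAZ10 (LOC_Os03g08330) stood at 52.2, 58.5 and 106 FPKM in spx4 and 12.2, 14.5 and 20.2 in bHLH6-OV (log2 fold change 2.1, SE 0.30, limma adjusted p = 0.000473). JAZ13 stood at 5.1, 5.03 and 5.71 FPKM against 0.445, 0.582 and 1.38 (log2 fold change 1.83, SE 0.41, limma adjusted p = 0.00676). JAZ11, which lies between JAZ9 and JAZ10 on chromosome 3, was lower in spx4, at 3.93, 5.08 and 5.8 FPKM against 7.85, 11.1 and 10.8 (log2 fold change -0.88, SE 0.22, limma adjusted p = 0.0126). JAZ9 stood at 3.25, 3.4 and 6.32 FPKM against 1.44, 1.47 and 1.82 (log2 fold change 1.00, SE 0.27, limma adjusted p = 0.0162), a call lost with voom (adjusted p = 0.0631) and without bHLH6-OV replicate 1 or 2 (0.0553 and 0.0511) or spx4 replicate 3 (0.0638).

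Iron genes differed in both directions. Of 18 listed genes 12 were tested, 6 were higher in spx4, 3 lower and 3 not called, against 18.3% higher and 13.8% lower over all genes. The lower calls fell to 1 over the 6 libraries alone and to 0 without bHLH6-OV replicate 1, while the higher calls stayed at 6 in both. IRO2 (LOC_Os01g72370), a bHLH regulator of iron uptake, stood at 2.33, 3.67 and 4.61 FPKM in spx4 and 0.00753, 0.00915 and 0.0838 in bHLH6-OV (log2 fold change 2.1, SE 0.18, limma adjusted p = 1.3e-05). NRAMP1, a metal transporter, stood at 2.53, 7.33 and 20.2 FPKM in spx4 and 0.563, 0.442 and 0.322 in bHLH6-OV (log2 fold change 2.57, SE 0.47, limma adjusted p = 0.00239). Both were almost silent in the overexpressor and well under WT in the mutant, where WT held 23.3 ± 4.49 and 86.6 ± 22.8 FPKM (SD, n = 3), and the mutant libraries of NRAMP1 were far apart. IRO3, a bHLH repressor of iron genes, stood at 12.7, 19.6 and 27.5 FPKM against 4.86, 5.15 and 5.98 (log2 fold change 1.67, SE 0.21, limma adjusted p = 0.000251). NAAT1, an enzyme of phytosiderophore synthesis, was lower in spx4, at 10.2, 57.3 and 104 FPKM against 340.2, 309 and 163 (log2 fold change -2.67, SE 0.75, limma adjusted p = 0.0204). Its mutant libraries were again far apart, and the call ended over the 6 libraries alone (adjusted p = 0.0675) and without bHLH6-OV replicate 1 or 2 (0.0714 and 0.0639) or spx4 replicate 1 (0.0552). The ferritin FER1, an iron store, held 64.8 ± 31.2 FPKM in spx4 and 113 ± 25.8 in bHLH6-OV (SD, n = 3, limma adjusted p = 0.0333), a call lost without bHLH6-OV replicate 1. FER1 has a close copy, FER2, which was not called (limma adjusted p = 0.0787).

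**Figure D3:**
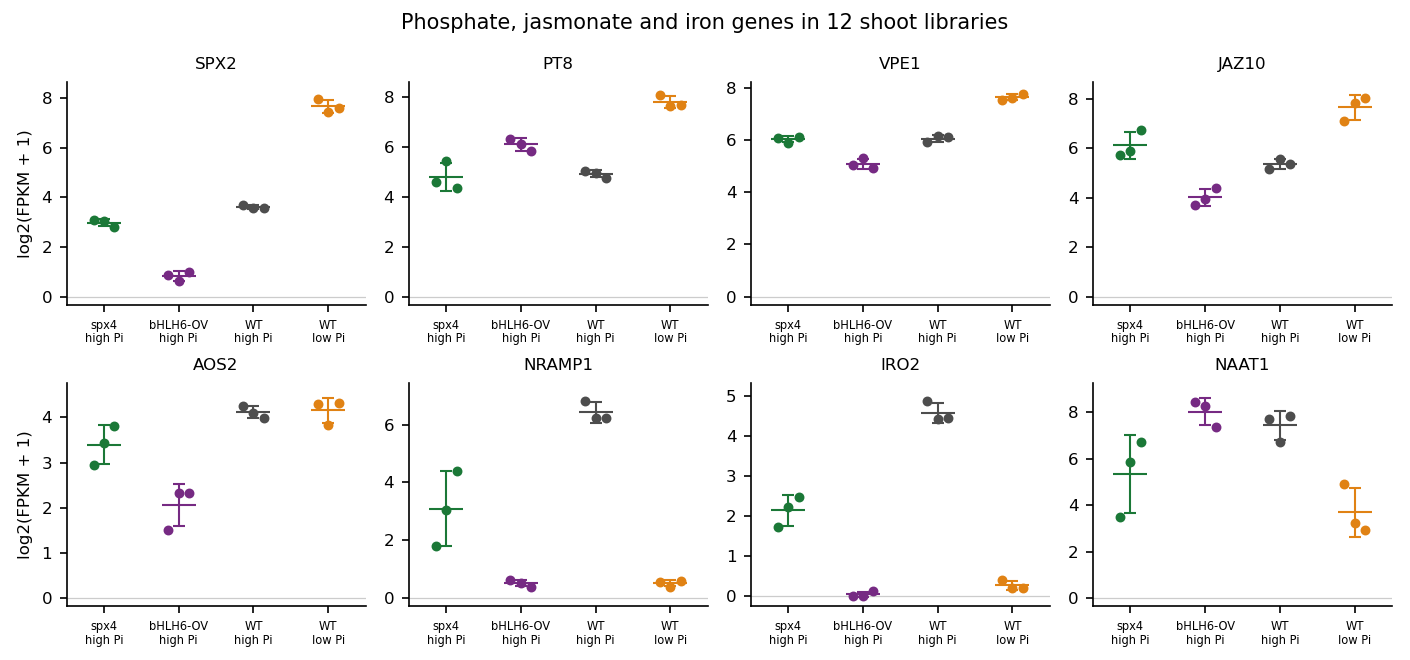
Levels of Pi, jasmonate and iron genes in the 12 shoot libraries, as log2(FPKM + 1) on the vertical axis for 4 groups on the horizontal axis. Points are libraries, and bars give the mean ± SD (n = 3). SPX2, JAZ10, AOS2, NRAMP1 and IRO2 are lowest in bHLH6-OV among the 3 high Pi groups, and the 3 spx4 libraries of NRAMP1 and NAAT1 are far apart.

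In photosynthesis, nitrogen and clock lists the calls were higher in spx4, but most members of the first 2 were not called, and scaling moved the counts. Of 23 tested genes described as photosystem or light-harvesting proteins 2 were higher and 0 lower, a smaller share than the 18.3% called higher over all genes, and 0 were called without bHLH6-OV replicate 1 or without spx4 replicate 3. Of 11 green-tissue markers 4 were higher in spx4, 0 lower and 7 not called (median 0.78), and 0 were called without bHLH6-OV replicate 1 or without spx4 replicate 3, while the 6 libraries alone gave 10 and TPM scaling 1. RCA, the activase of Rubisco, stood at 14739, 14731 and 15488 FPKM in spx4 and 8509.6, 9156 and 10294 in bHLH6-OV (log2 fold change 0.69, SE 0.21, limma adjusted p = 0.0263), with no overlap, and it was lost with TPM scaling (adjusted p = 0.075) and without any 1 of the 3 spx4 libraries or bHLH6-OV replicate 1 or 2 (adjusted p from 0.0573 to 0.0886). Fd-GOGAT, the ferredoxin-dependent glutamate synthase of the chloroplast, stood at 987, 814 and 855 FPKM against 471, 494 and 579 (log2 fold change 0.78, SE 0.20, limma adjusted p = 0.0143), lost without bHLH6-OV replicate 1 (adjusted p = 0.056) or spx4 replicate 1 (0.0514). The cytosolic glutamine synthetase GS1-2 stood at 61.7, 70.6 and 70.1 FPKM against 37.6, 41.4 and 50.4 (log2 fold change 0.64, SE 0.13, limma adjusted p = 0.00386). Of 12 tested nitrogen genes 3 were higher and 0 lower, a share near the 18.3% called higher over all genes. TPM scaling gave 2 and 2, and 1 was higher without bHLH6-OV replicate 1. Of 9 clock genes 5 were higher and 0 lower, against 18.3% higher over all genes, and TPM scaling gave 1 and 1. PRR73, a pseudo-response regulator, stood at 334, 266 and 319 FPKM in spx4 and 169, 195 and 215 in bHLH6-OV (log2 fold change 0.66, SE 0.12, limma adjusted p = 0.00177). Ribosomal protein genes were mostly not called (195 of 219, 9 higher and 15 lower, median -0.18), but TPM scaling called 129 lower and 1 higher.

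Some of the widest differences were near on or off and tell the lines apart at single loci. LOC_Os08g27870, described as EARLY FLOWERING 4, a clock protein, stood at 74.4, 80.6 and 66.4 FPKM in spx4 and 0.118, 1.07 and 0.245 in bHLH6-OV (log2 fold change 5.71, SE 0.19, limma adjusted p = 3.15e-09). A nitrite/sulphite reductase gene (LOC_Os02g52730) stood at 33.1, 28 and 30.1 FPKM against 1.12, 0.249 and 0.703 (log2 fold change 4.25, SE 0.17, limma adjusted p = 1.34e-08). Both were on in spx4 alone, with WT at 0 and 0.381 FPKM on average. They stayed under 1 FPKM on average in every other shoot group and passed the filter on low values only through spx4. A difference was thus built into their choice, and their calls add no support. In the other direction, LOC_Os12g12500, derived from a Harbinger transposase, had 0 reads in each spx4 library and stood at 25.8, 16.9 and 14.8 FPKM in bHLH6-OV, a bound of at least 255-fold higher when 3 reads are taken as the group's floor. WT shoots also held 0 FPKM of this gene at both Pi supplies, so among shoots it was on in bHLH6-OV alone and passed the filter only through that line. A cytochrome P450 gene (LOC_Os07g11739) stood at 0.0703, 0.027 and 0 FPKM in spx4 and 48.6, 55.6 and 71.4 in bHLH6-OV (log2 fold change -5.83, SE 0.17, limma adjusted p = 9.3e-10), with WT between them at 10.8 ± 0.954 (SD, n = 3). The NB-ARC immune receptor gene LOC_Os11g12340 stood at 0.415, 0.411 and 0.34 FPKM against 41.9, 35 and 32.1 (log2 fold change -4.74, SE 0.19, limma adjusted p = 1.67e-08), with WT at 27.1 ± 2.17 (SD, n = 3). Here it was the mutant that departed from WT. Over the NB-ARC family 46 of 201 tested genes were lower in spx4 and 34 higher, which became 70 and 15 with TPM scaling and 29 and 26 without bHLH6-OV replicate 1.

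Such loci were frequent on chromosome 4. In its first 20 Mb, a span taken from earlier results of these data, 47 of 516 tested genes were called with at least a 4-fold difference (9.11%), against 21 of 1227 on the rest of the chromosome (1.71%) and 365 of 18247 on other chromosomes (2.00%). As the span was chosen from these data, this contrast adds no support. Undivided, chromosome 4 stood at 3.90% and chromosome 7 at 3.20%. Of the 47, 41 were lower in spx4 and 6 higher, and 4 were momilactone genes. WT at high Pi lay nearer to bHLH6-OV than to spx4 in 28 of the 47, against 62 of the 365 on other chromosomes and 0 of the 21 on the rest of chromosome 4. A kinase gene (LOC_Os04g29770, chromosome 4, 17739613 to 17741879) was at 0 reads in all 3 spx4 libraries and stood at 23, 24.1 and 20.8 FPKM in bHLH6-OV and 29.2 ± 1.05 in WT (SD, n = 3). A wall-associated receptor kinase gene close by (LOC_Os04g29810, chromosome 4, 17765039 to 17766782) was also at 0 reads in spx4 and stood at 39.6, 31.5 and 21.4 FPKM in bHLH6-OV. With 3 reads taken as the floor of the mutant group, these were at least 458-fold and 512-fold higher in the overexpressor. bHLH6 itself lies in this span.

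**Figure D4:**
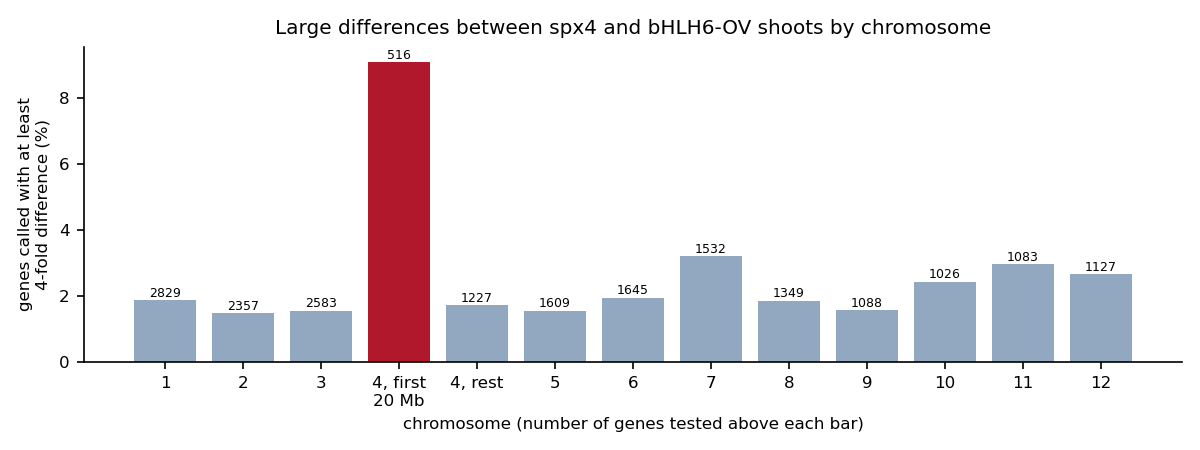
Share of tested genes called with at least a 4-fold difference between spx4 and bHLH6-OV shoots (vertical axis, percent) by chromosome (horizontal axis, chromosomes 1 to 12), with chromosome 4 divided at 20 Mb and the number of tested genes above each bar. The first 20 Mb of chromosome 4 stands at 9.11%, and no other bar reaches 4%. The cut at 20 Mb was taken from earlier results of these data, and undivided chromosome 4 stands at 3.90%.

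Further genes without a listed role, and larger families, were also read. The background for the family counts is 18.3% called higher in spx4 and 13.8% called lower over all genes. Several of these counts lie near it, so they do not set those families apart. LOC_Os02g47470, a cytochrome P450 gene, stood at 47.3, 43.9 and 55.4 FPKM in spx4 and 2.48, 3.24 and 4.87 in bHLH6-OV (log2 fold change 3.49, SE 0.41, limma adjusted p = 0.000127), and WT at low Pi held 240.1 ± 145 (SD, n = 3). An aminotransferase gene (LOC_Os01g09700) stood at 56.8, 34.6 and 44.7 FPKM against 2.61, 3.93 and 3.61 (log2 fold change 3.39, SE 0.24, limma adjusted p = 2e-06). A glycoside hydrolase family 1 gene (LOC_Os01g59840) stood at 16.4, 15.4 and 22.4 FPKM against 0.746, 1.13 and 0.975 (log2 fold change 3.28, SE 0.21, limma adjusted p = 1.02e-06). In all of these the mutant was close to WT or above it and the overexpressor was lower than both. Cytochrome P450 genes as a family were lower in spx4 in 45 of 150 tested cases and higher in 25, and at least 2-fold lower in 31 and higher in 8. Class III peroxidases had 11 higher and 10 lower of 55 tested, or 8 and 15 with TPM scaling, and LOC_Os01g22249 stood at 38.3, 41.9 and 46.9 FPKM in spx4 and 12, 8.38 and 6.17 in bHLH6-OV (log2 fold change 2.18, SE 0.24, limma adjusted p = 9.21e-05). Of 72 bHLH domain genes 13 were higher and 18 lower, of 22 wall-associated receptor kinases 5 and 8, and of 52 heat shock proteins 4 and 12. TPM scaling made these 6 and 25, 3 and 9, and 2 and 24. Purple acid phosphatases, which release Pi from organic compounds, were 11 higher and 6 lower of 45, which TPM scaling turned to 3 and 15, and aquaporins 6 and 4 of 22, which it turned to 4 and 11. Of 10 lipoxygenases 1 was lower and 0 higher, LOC_Os08g39850 at 4.35, 12.6 and 3.57 FPKM in spx4 against 19.3, 21.4 and 19.2 in bHLH6-OV (log2 fold change -1.60, SE 0.43, limma adjusted p = 0.0164), a call lost without spx4 replicate 1 or 3 (adjusted p = 0.0602 and 0.0675) or bHLH6-OV replicate 2 (0.052).

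The low Pi response of WT shoots was set beside these calls. Its fold changes come from the WT libraries, but its calls rest on a spread estimated with the 6 libraries compared here as well. The low Pi calls and the calls between the lines are therefore not independent. Among the 944 genes at least 2-fold lower in spx4, 370 were called higher and 96 lower in WT at low Pi, while over all tested genes 48.2% were called, 22.2% higher and 26.0% lower. Among the 482 genes at least 2-fold higher in spx4, 133 were higher and 153 lower at low Pi. Low Pi replicate 1 stood apart from replicates 2 and 3, and without it, an alternative added after seeing the data, these counts were 314 and 102, and 172 and 151. WRKY45 is one such gene, at 42.1 ± 4.65 FPKM in WT at high Pi and 242 ± 8.96 at low Pi (SD, n = 3). Phytoalexin genes were mixed. KSL7 stood at 0.0806 ± 0.0426 and 0.182 ± 0.182 and CPS4 at 0.767 ± 0.149 and 0.817 ± 0.544, neither of them called. CPS2 rose from 0.296 ± 0.0606 to 5.56 ± 3.89 (limma adjusted p = 0.00771) and MAS2 from 0.177 ± 0.217 to 1.37 ± 0.695 (limma adjusted p = 0.0212).

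In roots, the same lines differed in far fewer genes, 1454 of 22090 tested (6.58%, with 3.12% higher in spx4 and 3.46% lower), and the difference between tissues was tested directly. The shoot difference departed from the root difference in 5240 of 22980 genes (22.8%, limma interaction over 24 libraries). Of the phytoalexin genes tested in shoots, 7 were also tested in roots, with 1 higher in spx4, 0 lower and a median of 0.10. PBZ1 had a log2 fold change of -3.59 in shoots and 1.21 in roots (limma adjusted p = 0.0219 in roots), so its direction turned. The chitinase LOC_Os10g39680 went from -5.42 to 0.39 (adjusted p = 0.21 in roots). PR1a was abundant in roots of both lines, at 466 ± 75 FPKM in spx4 and 377 ± 56.2 in bHLH6-OV (SD, n = 3), where it was low in spx4 shoots. JAZ10 went from 2.1 to -0.42 (adjusted p = 0.555 in roots). SPX2 differed in both tissues, with 2.15 in shoots and 2.24 in roots and an interaction adjusted p of 0.799, and LOC_Os08g27870 with 5.71 and 6.0 (interaction adjusted p = 0.329).

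**Figure D5:**
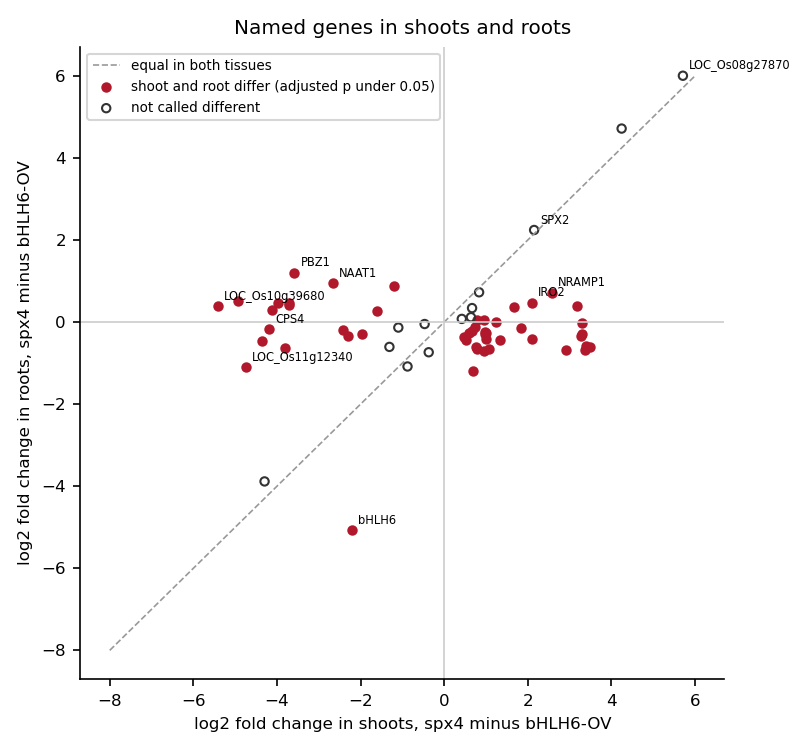
Log2 fold change of FPKM + 1 between spx4 and bHLH6-OV in shoots (horizontal axis) and roots (vertical axis) for the named genes tested in both tissues. Red points have a called difference between tissues, open points do not, and the dashed line marks equal values. PBZ1 and CPS4 lie far left, at root values of 1.21 and -0.17, while SPX2 and LOC_Os08g27870 lie near the dashed line.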

How the data were processed

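Shoot messenger RNA of spx4 and bHLH6-OV was compared, with WT shoots and the root libraries of the same study as background. The authors deposited FPKM per gene. Per the submitters' processing notes, HISAT2, StringTie, featureCounts 1.5.0-p3 and DESeq2 were used; the genome build is not given in the sources used here, and coordinates are the file's. The labels name a NEBNext Ultra RNA kit without saying whether strand was kept, so overlapping and antisense genes cannot be separated.

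FPKM times gene length fell on whole reads for 100% of values within 0.01 reads, which gave reads per library (21.0 to 29.6 M). The FPKM divisor was 0.733 to 0.775 of a library's reads in spx4 shoots and 0.894 to 1.04 in bHLH6-OV shoots, so scaling was varied. Genes with a mean of at least 1 FPKM over the 12 shoot libraries were fitted as log2(FPKM + 1) with 1 mean per group in limma 3.58.1 (R 4.3.3, robust empirical Bayes with a trend), so WT libraries share in the estimate of spread. p-values were adjusted by Benjamini-Hochberg over all genes. The fit was tested on simulated data. Fold changes on this scale understate low genes. Alternatives were pseudocount 0.1, no filter, a mean of at least 5 FPKM, TPM, median centring, voom on rebuilt reads, the 6 libraries alone, a replicate block and leaving out each library. Tables were made in Python 3.11.15 with numpy 2.4.6 and pandas 2.3.3, figures with matplotlib 3.10.9.

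The comparison, the gene lists and the tests were chosen with earlier results of these data known, and 6 lists were added after seeing values. Of 141 symbols, assigned to loci from general knowledge, 140 were in the table, and the RefSeq gene table has 85 of these names on the same chromosome, 3 on another only (CYP76M7, TOM1 and IRO2) and no gene for 52. Named genes are bHLH6 and SPX4, the 10 highest and 10 lowest calls by fold with non-overlapping libraries, a mean of at least 5 FPKM in 1 group and a symbol or description, at most 4 called members of a list of symbols and 1 of a list of words, and 5 genes each way by shoot minus root. Other genes given are list members, cluster neighbours or named as chosen after their values were seen. Libraries of a group were no duplicates: chi-square per degree of freedom between rebuilt reads was 13.3 to 38.6 within these 2 groups. SPX6 was not analysed here.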

Additional observations from a re-analysis of the deposited data

Results flagged for a closer look

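The difference between spx4 and bHLH6-OV was not the same in shoots and roots for 60 of the named genes, by limma's test of the difference itself over 24 libraries (adjusted p under 0.05, Benjamini-Hochberg over 22980 genes). Values here are the log2 fold change of FPKM + 1 in shoots minus that in roots. The genes had been named for their differences in these shoots or for this measure, so many such values follow from the choice. bHLH6 had 2.87, as it differed more in roots.

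Among the other genes lower in spx4 shoots, the values were negative. The value was -7.80 for PR1b, -5.81 for LOC_Os10g39680, -5.45 for PR10b and -4.80 for LOC_Os12g36860. It was -4.79 for PBZ1, -4.72 for LOC_Os04g29810, -4.66 for LOC_Os07g11739 and -4.49 for LOC_Os04g29770. There followed -4.44 for LOC_Os03g46070, -4.43 for PR1a, -4.17 for RSOsPR10 and -4.13 for MAS2. Next came -4.02 for CPS4, -3.90 for LOC_Os11g37950, -3.83 for KSL7 and -3.65 for CPS2. Further values were -3.64 for LOC_Os11g12340, -3.61 for NAAT1, -3.17 for LOC_Os09g25070 and -2.38 for LOC_Os09g34330. The value was -2.23 for LOC_Os07g04560, -2.09 for LOC_Os07g26630, -1.96 for LOC_Os01g37750 and -1.88 for LOC_Os08g39850. It was -1.68 for LOC_Os09g28354 and -1.17 for an unannotated kinase-domain transcript on chromosome 5.

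Among genes higher in spx4 shoots, the values were positive. The value was 4.10 for LOC_Os02g47470, 4.05 for LOC_Os08g36920, 3.98 for LOC_Os01g09700 and 3.61 for LOC_Os01g59840. It was 3.59 for LOC_Os11g05380, 3.57 for LOC_Os02g45450, 3.31 for LOC_Os08g37660 and 2.78 for LOC_Os07g35790. There followed 2.52 for JAZ10, 2.13 for LOC_Os01g22249, 1.98 for JAZ13 and 1.87 for RCA. Next came 1.85 for NRAMP1, 1.77 for AOS2, 1.72 for LOC_Os08g44680 and 1.66 for PSBO. Further values were 1.62 for IRO2, 1.45 for PRK, 1.41 for LOC_Os03g63950 and 1.35 for CAB1R. The value was 1.31 for IRO3, 1.28 for LOC_Os01g03830, 1.26 for LSI1 and 1.26 for JAZ9. It was 1.24 for SPX-MFS2, 1.22 for AOS1, 0.96 for NLA1 and 0.89 for VPE1. There followed 0.87 for PRR73, 0.86 for NiR, 0.85 for LHY and 0.84 for PRR37. Next came 0.73 for Fd-GOGAT.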

How the results depend on the processing

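Over the settings run, 51 of 73 named genes stayed called and none reversed, and 90 of 1448 values lost the call. TPM scaling gave 1069 higher and 6323 lower calls, of which 307 and 1507 were at least 2-fold, and by construction it lowers spx4 values against bHLH6-OV. A minimum mean of 5 FPKM, which tests fewer genes, gave 1677 lower calls, 453 of them at least 2-fold. A pseudocount of 0.1, which shrinks low genes less, gave 740 calls at least 2-fold higher. Of all calls 57.0% were higher in spx4, against 14.5% with TPM, 42.0% with median centring, 46.7% with voom and 49.3% with no filter.

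Leaving out 1 library, calls ran from 4027 (without bHLH6-OV replicate 1) to 8156 (without WT low Pi replicate 1), higher calls from 2157 to 4858, lower calls from 1870 to 3298, calls at least 2-fold higher from 397 to 559 and at least 2-fold lower from 835 to 1041. Calls of the shoot minus root difference ran from 3736 to 5634. Leaving out a library removes degrees of freedom as well as values.

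Deviations of same-numbered spx4 and bHLH6-OV libraries correlated at -0.27, 0.03 and -0.04, and pairs with unlike numbers ran from -0.26 to 0.25. These values show no pairing by number, but whether same-numbered libraries share a batch was not tested. The block changed no call of a named gene. With a replicate block 6104 genes were called, and the shoot minus root count was 5084. Depth limits genes of a few reads, whose floor is 3 reads over a group and covers counting error only.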

Other observations

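Over all gene descriptions, those with at least 15 tested genes were ranked after seeing the data by the share of genes at least 2-fold lower in spx4. Glutathione S-transferases came first, and genes described as CALMODULIN-BINDING PROTEIN60, a plant family with members that drive salicylate synthesis, came next, with 11 of 19 tested genes lower in spx4, 2 higher and 5 at least 2-fold lower. TPM scaling gave 11 lower and 0 higher, and voom 10 and 1. Small auxin-up RNA genes, early targets of auxin, had 8 of 26 higher and 3 lower, which TPM scaling turned to 4 and 6.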
